A study of Homo sapiens with 9 samples.

Results

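The 10 genes described here encode the small GTPases RAC1 and RAC3, the exchange factor FARP1, the p21-activated kinases PAK1, PAK2, PAK3, PAK4 and PAK6, and the WAVE complex subunits CYFIP1 and CYFIP2. They are 10 of the 35762 gene symbols in the table of estimated counts, they were selected on the measured counts of the same libraries analysed here, and their own values are therefore a description, from which no test is read. All 10 passed the filter on low counts, which kept 15345 genes.

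Poly-A RNA was sequenced from TYUC-1, a cancer cell line labelled as neuroendocrine carcinoma of the esophagus and grown in suspension in medium with serum. The groups were 3 replicates each from day 0, day 3 and day 6 of exposure to EPZ-6438, an inhibitor of EZH2, the enzyme of Polycomb repressive complex 2 that methylates histone H3. The protocol gives 2 uM EPZ-6438 or DMSO, and EPZ-6438 is the labelled treatment of each of the 9 libraries, including those of day 0. Whether the day 0 cells received DMSO is not stated. Vehicle-treated cells of the later days were not analysed here, so the inhibitor and the time in culture cannot be told apart. A single cell line was used, so the 3 replicates per day, called biological by the submitters, measure the spread within that line.

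Rac proteins switch between an inactive form bound to GDP and an active form bound to GTP. Exchange factors load them with GTP, GTPase activating proteins end the signal, and active Rac binds effectors that rebuild the actin cytoskeleton. The PAK kinases and the WAVE complex are such effectors, and the WAVE complex passes the signal on to the Arp2/3 complex, which starts new actin branches. PAK3, CYFIP2 and FARP1 are best known from neurons, where they take part in the shaping of dendrites and synapses. FARP1 acts upstream of Rac as an exchange factor and is not an effector in the strict sense.

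Libraries held 21638874 to 31235055 estimated counts. Levels are given in CPM, counts scaled by the TMM-adjusted library size. Replicate 2 of day 0 stood apart from the other replicates of its day, with a chi-square per degree of freedom of 55.6 and 47.7 against them, where the other pairs within a day gave 3.53 to 16.4. Where a log2 fold change of a listed or pathway gene turned direction or moved by over 1.5 times without it, or a pathway gene's call changed, both values are given. Of the markers of the labelled cell type, CHGA was at 0 counts in all 9 libraries, while SYP averaged 5.85, 4.79 and 6.07 CPM and NCAM1 6.26, 15.4 and 20.1 CPM on day 0, day 3 and day 6. The tuft cell factor POU2F3 averaged 285, 289 and 228 CPM on the same days.

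Promoter windows are shown for FARP1, CYFIP2 and PAK3, the 3 genes with the largest changes, so that their CpG content can be set beside those changes. EZH2 and its complex are known to gather at promoters rich in CpG. The windows run from 250 bases before to 50 bases after the RefSeq start, on GRCh38.p14, and capitals mark CpG dinucleotides. RefSeq gave 2, 2 and 3 windows for FARP1, CYFIP2 and PAK3, and the window nearest the GENCODE start is shown. Counts per gene do not tell which start these cells used. FARP1 lies on the plus strand and its window is chr13:98142339-98142638. CYFIP2 lies on the plus strand and its window is chr5:157265873-157266172. PAK3 lies on the plus strand and its window is chrX:110944147-110944446.
FARP1: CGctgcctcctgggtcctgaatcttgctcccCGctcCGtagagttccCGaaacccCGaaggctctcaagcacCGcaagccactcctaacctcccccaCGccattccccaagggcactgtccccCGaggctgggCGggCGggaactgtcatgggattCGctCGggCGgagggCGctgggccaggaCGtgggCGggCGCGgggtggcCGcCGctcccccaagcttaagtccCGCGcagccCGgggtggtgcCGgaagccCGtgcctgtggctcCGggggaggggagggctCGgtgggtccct
CYFIP2: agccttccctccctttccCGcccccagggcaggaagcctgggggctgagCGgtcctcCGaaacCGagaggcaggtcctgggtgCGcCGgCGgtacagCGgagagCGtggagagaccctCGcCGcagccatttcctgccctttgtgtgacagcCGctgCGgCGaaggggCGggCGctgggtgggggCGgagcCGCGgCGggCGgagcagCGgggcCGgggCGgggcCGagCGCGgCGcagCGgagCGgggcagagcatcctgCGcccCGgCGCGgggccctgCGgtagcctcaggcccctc
PAK3: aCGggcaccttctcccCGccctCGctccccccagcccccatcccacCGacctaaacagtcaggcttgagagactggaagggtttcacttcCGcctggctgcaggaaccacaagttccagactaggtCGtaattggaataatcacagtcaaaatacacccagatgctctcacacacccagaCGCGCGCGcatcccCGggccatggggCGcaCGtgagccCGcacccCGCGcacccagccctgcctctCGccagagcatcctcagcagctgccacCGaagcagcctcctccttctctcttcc

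The FARP1 window held 27 CpG, the CYFIP2 window 35 and the PAK3 window 18, against a median of 14 and quartiles of 4 and 28 over 35116 RefSeq windows of the same length. Of these windows 71.8%, 85.9% and 55.5% held fewer CpG than FARP1, CYFIP2 and PAK3. The GC box, GGGCGG on either strand, occurred 4 times in the FARP1 window, 5 times in that of CYFIP2 and 1 time in that of PAK3, and 45% of all windows held it. The letters CCAAT, on either strand, occurred 1 time in the PAK3 window and in neither of the other windows, and 34.6% of all windows held them. TATAAA was found in none of the 3 windows shown, and 11.5% of all windows held it. The RefSeq start used lay 27, 44 and 112 bases from the GENCODE start for FARP1, CYFIP2 and PAK3, and 0, 16 and 165 bases from it for PAK2, PAK4 and CYFIP1. The windows of PAK2, PAK4 and CYFIP1, taken from 1, 2 and 4 RefSeq windows, held 27, 22 and 22 CpG, so PAK2 had as many as FARP1. For PAK1 and PAK6 the nearest windows lay 62664 and 1104 bases from the GENCODE start and are not compared, and RAC1 and RAC3 had no window. Histone marks and methylation were not measured in these libraries.

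FARP1 and CYFIP2 increased at both steps, PAK3 was highest on day 3 and lowest on day 6, PAK2 declined, and the other 6 genes moved by less than 0.5 on the log2 scale in every comparison. FARP1 averaged 78.4 ± 4.31 CPM on day 6 and 2.45 ± 0.577 CPM on day 0 (SD, n = 3 each), a ratio of 32.1. CYFIP2 averaged 20.6 ± 0.797 CPM on day 6 and 0.388 ± 0.0323 CPM on day 0, a ratio of 53.0. PAK3 averaged 40.6 ± 1.80 CPM on day 3 and 20.02 ± 2.99 CPM on day 0, a ratio of 2.03, and 14.4 ± 0.918 CPM on day 6.

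A gene was called where its adjusted p from edgeR was under 0.05 over all genes tested. On day 3 against day 0, 6 of the 10 genes were called, 5 higher and 1 lower, where 40.6% of all genes tested were called, 22.5% higher and 18.1% lower. For day 6 against day 0, 9 were called, 5 higher and 4 lower, where 54.6% of all genes were called, 28.9% higher and 25.7% lower. For day 6 against day 3, 5 were called, 2 higher and 3 lower, where 16.3% of all genes were called, 11.5% higher and 4.76% lower. Since the genes were picked with these contrasts known, nothing is read from their counts. The median log2 fold change of the 10 genes was 0.20, 0.13 and -0.09 in the 3 comparisons, and that of all genes tested was 0.02, 0.01 and -0.001. Of all genes called, 55.3%, 53.0% and 70.7% were higher, and with scaling by library size only 69.2%, 66.6% and 78.1%, with the median of all genes at 0.09, 0.13 and 0.03. Comparisons that use the same day share its libraries.

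**Figure D1:**
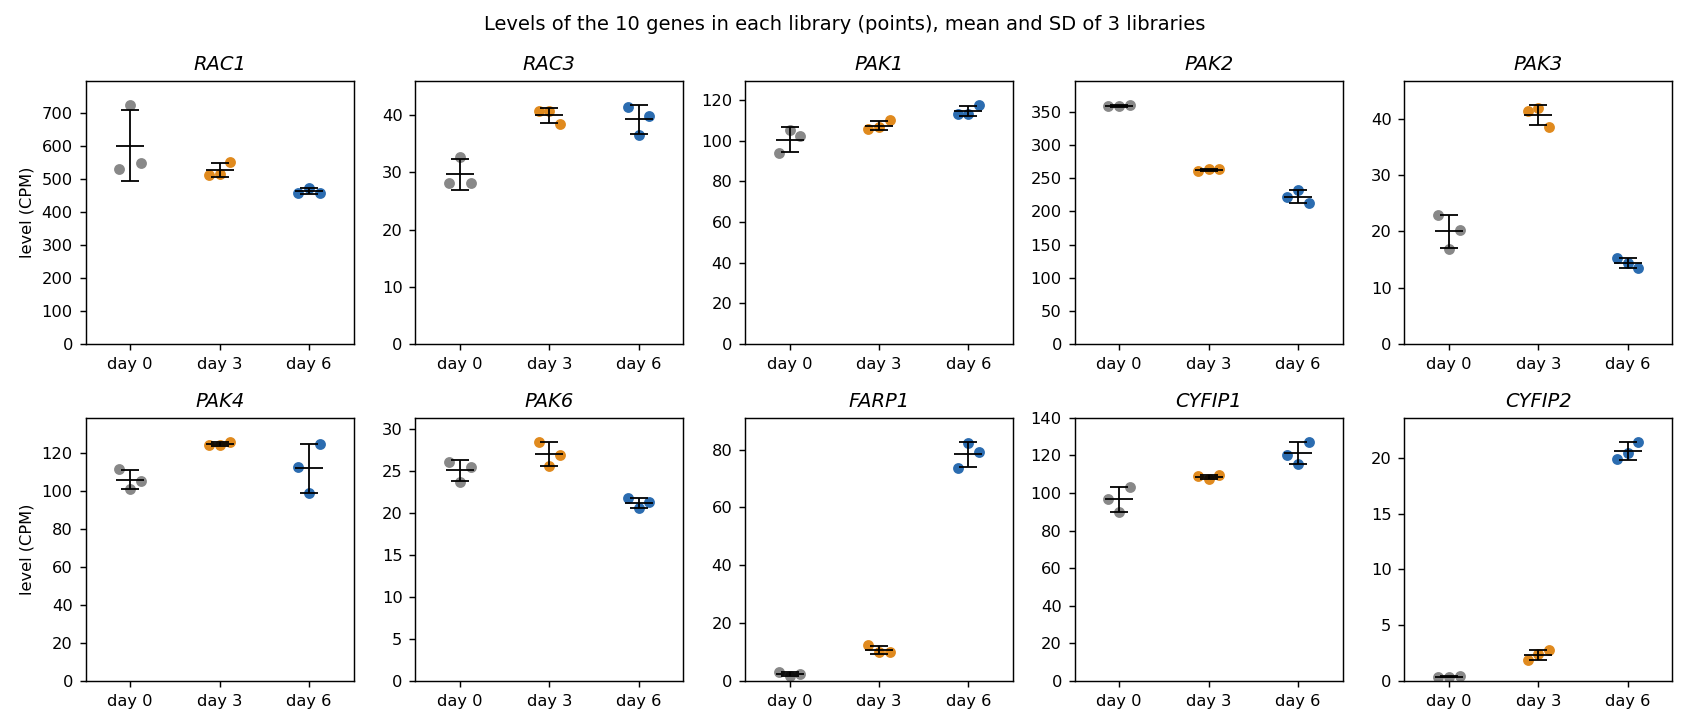
Levels of the 10 genes in CPM (vertical axes, each from 0) in the 9 libraries by day, with points for libraries and bars for the mean and SD of 3. FARP1 and CYFIP2 climb to 73.8 to 82.3 and 19.9 to 21.5 CPM on day 6, while PAK3 peaks at 38.6 to 41.9 CPM on day 3.

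RAC1, the ubiquitous Rac, had 531, 725 and 550.1 CPM in replicates 1, 2 and 3 of day 0, 514, 516 and 554 CPM on day 3, and 458, 474 and 460 CPM on day 6. All day 6 libraries lay below all of day 0 and of day 3, and days 0 and 3 overlapped. The log2 fold change was -0.19 ± 0.11 (SE) on day 3 against day 0, -0.38 ± 0.11 on day 6 against day 0 and -0.19 ± 0.11 on day 6 against day 3. The highest value belonged to replicate 2 of day 0, the library that stood apart. Without it the 3 changes were -0.04, -0.23 and -0.19. Of the 9 processed copies named RAC1P1 to RAC1P9, RAC1P2 alone had counts, 54 in all, so few reads were assigned to them.

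RAC3, a closely related Rac that is prominent in the nervous system, had 28.1, 32.7 and 28.1 CPM on day 0, 40.6, 40.7 and 38.4 CPM on day 3, and 41.4, 36.5 and 39.8 CPM on day 6. Both later days lay above day 0 with no overlap, and they overlapped each other. RAC3 changed by 0.43 ± 0.08 (log2 fold change) on day 3 against day 0 and 0.41 ± 0.08 on day 6 against day 0, and -0.03 ± 0.08 on day 6 against day 3.

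FARP1 binds membranes through a FERM domain and activates RAC1 in rodent neurons, where it lies downstream of the adhesion protein SynCAM 1. The gene spans chr13:98142562-98455176 on the plus strand. It had 2.97, 1.83 and 2.54 CPM on day 0, 12.3, 9.87 and 10.0 CPM on day 3, and 73.8, 82.3 and 79.2 CPM on day 6. The 3 days did not overlap, and the lowest day 6 library was far above the highest of day 3. Its fitted log2 fold change was 2.11 ± 0.15 on day 3 against day 0, 4.98 ± 0.15 on day 6 against day 0 and 2.87 ± 0.13 on day 6 against day 3. The ratio of means was 4.38 on day 3 against day 0 and 7.32 on day 6 against day 3, so the climb was not finished by day 3. FARP1 shares 7634 exon bases with STK24, a kinase gene on the opposite strand, and whether the counting used strand is not stated. STK24 averaged 130 CPM on day 0, 121 CPM on day 3 and 125 CPM on day 6, and its log2 fold change was -0.05 ± 0.07 on day 6 against day 0 (adjusted p = 0.587, edgeR).

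The group I kinases PAK1, PAK2 and PAK3 are held inactive until Rac or Cdc42 binds them. PAK1 had 93.9, 105 and 102 CPM on day 0, 106, 107 and 110 CPM on day 3, and 113, 113 and 118 CPM on day 6. The days did not overlap, yet the nearest values of day 3 and day 0 were 105.6 and 105.3 CPM. Its log2 fold change was 0.19 ± 0.07 on day 6 against day 0, 0.10 ± 0.07 on day 3 against day 0 and 0.09 ± 0.07 on day 6 against day 3.

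PAK2, the widely expressed member of the group, had 358, 359 and 361 CPM on day 0, 261, 264 and 263 CPM on day 3, and 222, 232 and 212 CPM on day 6. It fell with no overlap at either step. PAK2 had log2 fold changes of -0.45 ± 0.07 on day 3 against day 0, -0.69 ± 0.07 on day 6 against day 0 and -0.24 ± 0.07 on day 6 against day 3.

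PAK3, the member best known from the brain, spans chrX:110944285-111227361 on the plus strand. It had 22.9, 16.9 and 20.2 CPM on day 0, 41.5, 41.9 and 38.6 CPM on day 3, and 15.3, 14.4 and 13.4 CPM on day 6. Day 3 was above both other days and day 6 below both, with no overlap, although the lowest library of day 0, replicate 2, was near the highest of day 6. Fitted log2 fold changes of PAK3 were 1.02 ± 0.11 on day 3 against day 0, -0.48 ± 0.11 on day 6 against day 0 and -1.497 ± 0.108 on day 6 against day 3. Without replicate 2 of day 0 the changes against day 0 were 0.91 on day 3 and -0.60 on day 6.

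The group II kinases PAK4 and PAK6 differ from group I in how they are held inactive. PAK4 had 111, 101 and 105 CPM on day 0, 124, 124 and 126 CPM on day 3, and 112, 98.6 and 124 CPM on day 6. Day 3 stood above day 0, and day 6 overlapped both. The log2 fold change of PAK4 was 0.23 ± 0.09 on day 3 against day 0, 0.08 ± 0.09 on day 6 against day 0 and -0.16 ± 0.09 on day 6 against day 3. Without replicate 2 of day 0 the change on day 6 against day 0 was 0.04. PAK6, first described as a partner of the androgen receptor, had 26.1, 23.7 and 25.5 CPM on day 0, 28.5, 25.6 and 27.0 CPM on day 3, and 21.8, 20.6 and 21.3 CPM on day 6. Day 6 was lowest, and days 0 and 3 overlapped. Its log2 fold change was 0.11 ± 0.08 on day 3 against day 0, 0.06 without replicate 2 of day 0, -0.24 ± 0.08 on day 6 against day 0 and -0.35 ± 0.08 on day 6 against day 3. PAK6 shares exons on its own strand with the read-through gene BUB1B-PAK6, which held 0 to 5 counts per library.

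CYFIP1 and CYFIP2 are alternative subunits of the WAVE complex that bind active Rac, and both also bind the fragile X protein. CYFIP1, the widely expressed form, had 96.9, 89.8 and 103 CPM on day 0, 109, 107 and 110 CPM on day 3, and 120.4, 116 and 127 CPM on day 6. The days did not overlap. The log2 fold change was 0.33 ± 0.07 on day 6 against day 0, 0.17 ± 0.07 on day 3 against day 0 and 0.16 ± 0.07 on day 6 against day 3. CYFIP1 shares 1333 exon bases with NIPA2 on the opposite strand, and NIPA2 averaged 46.6 CPM on day 6 and 83.3 CPM on day 0, a move in the other direction.

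CYFIP2, the form prominent in the brain, spans chr5:157266079-157395595 on the plus strand. It had 0.359, 0.383 and 0.423 CPM on day 0, 1.86, 2.41 and 2.78 CPM on day 3, and 19.9, 20.4 and 21.5 CPM on day 6. The 3 days did not overlap. The day 0 values rest on 11, 9 and 9 counts, those of day 3 on 50, 72 and 64 counts, and those of day 6 on 591, 474 and 498 counts, so the folds against day 0 are the least precise. The log2 fold change was 2.59 ± 0.21 on day 3 against day 0, 5.72 ± 0.18 on day 6 against day 0 and 3.13 ± 0.13 on day 6 against day 3. The ratio of means was 6.06 on day 3 against day 0 and 8.75 on day 6 against day 3. CYFIP2 shares 62 exon bases with ADAM19 on the opposite strand, which had 34, 30 and 19 counts on day 6 and 0, 1 and 0 counts on day 0, so it moved with CYFIP2 at a far lower level.

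**Figure D2:**
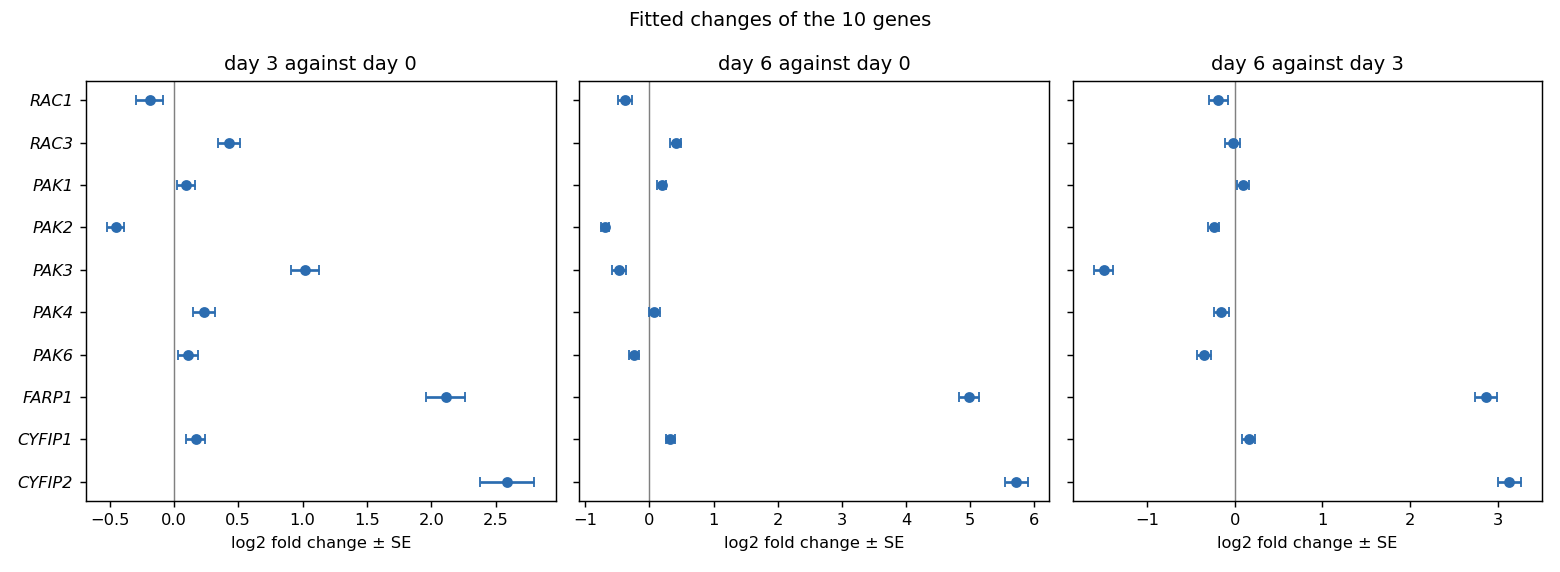
Log2 fold changes with their SE (horizontal axes, each with its own range) of the 10 genes in the 3 comparisons. FARP1 and CYFIP2 lie to the right in every panel, at 4.98 and 5.72 on day 6 against day 0, and PAK3 lies at 1.02 on day 3 against day 0 and -1.497 on day 6 against day 3.

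In every comparison most of the 10 genes showed no overlap between the days compared, namely 8 on day 3 against day 0, 9 on day 6 against day 0 and 8 on day 6 against day 3. Of the 15345 genes tested, 8260, 9007 and 6672 showed no overlap in the same comparisons. The shares called, over all genes tested whether they overlapped or not, were 40.6%, 54.6% and 16.3%. The 10 genes were selected on these counts, so nothing is read from the difference.

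Levels of different genes were compared after division by the mean length of their protein-coding transcripts, as CPM per kilobase. On day 6 the order of mean levels was RAC1 at 287, PAK1 at 41.1, PAK2 at 36.2, PAK4 at 36.0, RAC3 at 36.0, CYFIP1 at 21.4, FARP1 at 11.3, PAK6 at 5.80, PAK3 at 4.79 and CYFIP2 at 4.73 CPM per kilobase. The libraries of PAK2, PAK4 and RAC3 overlapped, as did those of PAK3 and CYFIP2. On day 0 it was RAC1 at 373, PAK2 at 58.5, PAK1 at 36.0, PAK4 at 34.1, RAC3 at 27.2, CYFIP1 at 17.1, PAK6 at 6.86, PAK3 at 6.66, FARP1 at 0.351 and CYFIP2 at 0.0893 CPM per kilobase. PAK1 and PAK4 overlapped, as did PAK6 and PAK3. The order below RAC1 depends on the length, and with the longest transcript or the union of exons PAK1 stood below PAK2 and RAC3 on day 6. With the longest transcript the day 6 means of PAK3 and CYFIP2 were 1.61 and 3.23 CPM per kilobase, the other way round, and with the union of exons those of FARP1 and PAK6 were 2.16 and 3.29, also the other way round. On day 0 CYFIP2 had the lowest and FARP1 the next lowest mean of the 10 with each of the 3 lengths.

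Shares within each family were taken on the same scale. CYFIP2 made up 0.521 ± 0.037% of the summed CYFIP1 and CYFIP2 level on day 0, 2.74 ± 0.520% on day 3 and 18.1 ± 0.520% on day 6 (SD, n = 3 each). PAK3 made up 6.59 ± 1.06% of the group I PAK level on day 0, 14.3 ± 0.675% on day 3 and 5.84 ± 0.354% on day 6. PAK2 held 57.8% of that level on day 0, 45.1% on day 3 and 44.1% on day 6, and PAK1 held 35.6%, 40.6% and 50.1%, so PAK1 passed PAK2 by day 6. RAC3 made up 6.86 ± 0.527% of the summed RAC1 and RAC3 level on day 0, 10.1 ± 0.670% on day 3 and 11.1 ± 0.809% on day 6. These shares depend on the transcript length used. PAK3 has transcripts averaging 3005 bases with a longest of 8940 bases, and with the longest its share was 2.56%, 5.98% and 2.35% on the 3 days. With that length PAK1 also stayed below PAK2 on day 6, at 44.8% and 52.8%.

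**Figure D3:**
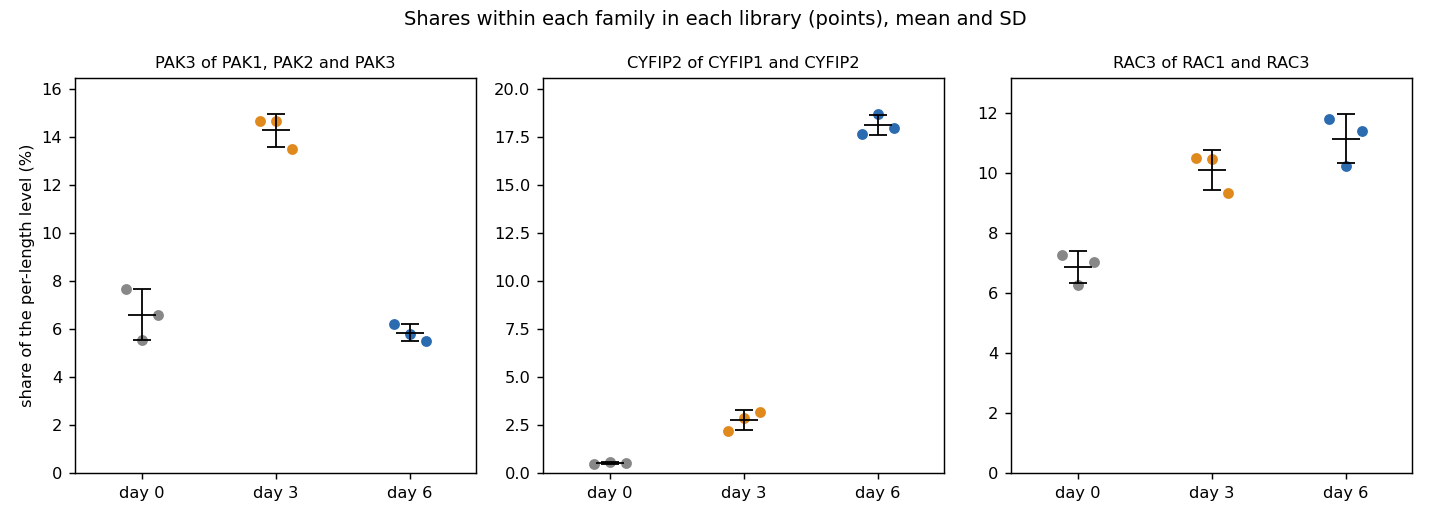
Shares in percent (vertical axes from 0) of PAK3, CYFIP2 and RAC3 within their families, by day, with points for libraries and bars for the mean and SD of 3. The CYFIP2 share is 17.7 to 18.7% on day 6 and 0.480 to 0.552% on day 0, and the PAK3 share is highest on day 3, at 13.5 to 14.7%.

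The wider Rac pathway was taken from 118 genes in 9 groups listed by function, of which 112 were tested. On day 3 against day 0, 29 were higher and 11 lower, 35.7% called against 40.6% of all genes. For day 6 against day 0, 33 were higher and 27 lower, 53.6% against 54.6%, and on day 6 against day 3, 16 were higher and 7 lower, 20.5% against 16.3%. The shares called lay near the background and are no result about the pathway. Its median log2 fold change was 0.05, -0.03 and -0.04. Without replicate 2 of day 0, 54, 69 and 43 pathway genes were called, beside 7289, 9496 and 4681 of all genes. The last pathway count was 13 without replicate 1 or 2 of day 3 and 15 without replicate 1 of day 6. Adjusted p-values below are from edgeR over all genes tested.

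The exchange factor group also holds the ELMO genes, which encode partners of DOCK proteins. Of its 28 genes tested, 9 were higher on day 3 against day 0, 32.1% called where 40.6% of all genes were. On day 6 against day 0, 11 were higher and 5 lower, 57.1% called where 54.6% of all genes were. On day 3, 0 were called lower by edgeR, with 2 at an unadjusted p under 0.05, 1 by DESeq2 and 0 by limma-voom. DOCK3, a Rac activator first known as a presenilin binding protein in the brain, had 0.697 ± 0.0728 CPM on day 0, 2.18 ± 0.240 CPM on day 3 and 7.69 ± 0.607 CPM on day 6. Its log2 fold change was 3.46 ± 0.17 on day 6 against day 0 (adjusted p = 2.36e-08) and 1.82 ± 0.15 on day 6 against day 3 (adjusted p = 6.36e-06). VAV2, which is switched on by tyrosine kinases, had 6.60 ± 0.0984 CPM on day 6 and 0.587 ± 0.228 CPM on day 0, with a log2 fold change of 3.53 ± 0.23 (adjusted p = 1.9e-07). DOCK5 rose by 1.72 ± 0.10 on day 6 against day 0 (adjusted p = 1.03e-07), and DOCK11, which acts on Cdc42, by 1.02 ± 0.11 on day 3 against day 0 (adjusted p = 2.57e-05). TRIO was not called in any comparison, at 0.04 ± 0.18 on day 3 against day 0, -0.23 ± 0.18 on day 6 against day 0 and -0.27 ± 0.18 on day 6 against day 3. Without replicate 2 of day 0 TRIO was at -0.20, -0.48 and -0.27 and was called lower in all 3, the first of them a turn in direction.

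Among 8 WAVE subunits tested besides CYFIP1 and CYFIP2, 2 were higher and 4 lower on day 6 against day 0, where 28.9% of all genes were higher and 25.7% lower. WASF3, one of the WAVE proteins that activate Arp2/3, had 2.03 ± 0.311 CPM on day 0, 8.29 ± 0.688 CPM on day 3 and 19.0 ± 0.581 CPM on day 6. It rose by 2.05 ± 0.13 on day 3 against day 0 (adjusted p = 7.45e-07), 3.24 ± 0.13 on day 6 against day 0 (adjusted p = 3.73e-09) and 1.19 ± 0.11 on day 6 against day 3 (adjusted p = 1.34e-05). NCKAP1L, the subunit of blood cells, rose by 1.12 ± 0.20 on day 6 against day 0 (adjusted p = 0.00061). Its level stayed low, at 1.74 CPM on day 0 and 3.79 CPM on day 6. Its counterpart NCKAP1 was lower by a log2 change of -0.33 ± 0.09 on day 6 against day 0 (adjusted p = 0.00664), a value added after it was seen. NCKAP1 averaged 283.5 CPM on day 0 and 225.9 CPM on day 6, far above NCKAP1L. On day 3 against day 0 NCKAP1 was at -0.24 ± 0.09 (adjusted p = 0.043), -0.16 without replicate 2 of day 0, and that call was lost without replicate 1 of day 0, any library of day 3 or replicate 1 of day 6, with changes of -0.26 to -0.23. WASF1 fell by 0.37 ± 0.09 on day 6 against day 0 (adjusted p = 0.00387), to 90.5 CPM against 117 CPM. WASF2 and ABI1 were not called on day 6 against day 0, at 0.24 ± 0.12 and -0.05 ± 0.08, and without replicate 2 of day 0 they were at 0.09 and 0.02.

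Of the 10 Arp2/3 genes, 0 were called higher in any comparison by edgeR, DESeq2 or limma-voom, or at an unadjusted p under 0.05 in edgeR, and 3, 4 and 1 were lower on day 3 against day 0, on day 6 against day 0 and on day 6 against day 3. These were 30%, 40% and 10% of the group, where 18.1%, 25.7% and 4.76% of all genes were called lower and 40.6%, 54.6% and 16.3% in either direction. The 1 call on day 6 against day 3, ARPC5L at -0.30 ± 0.09 (adjusted p = 0.0376), was lost when any library of day 3 or day 6 was left out, with changes of -0.34 to -0.24. The changes on day 6 against day 0 were -0.83 ± 0.09 for ARPC5L (adjusted p = 1.03e-05), -0.42 ± 0.09 for ACTR2 (adjusted p = 0.00123) and -0.42 ± 0.10 for ACTR3 (adjusted p = 0.00318). ARPC1A and ARPC2 were not called, at -0.20 ± 0.08 and -0.18 ± 0.11, and ARPC2 was at -0.03 without replicate 2 of day 0. Of the 16 PAK partners and cofilin regulators tested, 5 were higher and 6 lower on day 6 against day 0, 68.8% called where 54.6% of all genes were. PAK1IP1, an inhibitor of PAK1, fell by 0.76 ± 0.12 (adjusted p = 0.000202) and GIT2, which anchors PAK at adhesions, by 0.40 ± 0.07 (adjusted p = 0.000624). LIMK2, a kinase that inactivates cofilin, rose by 0.38 ± 0.07 (adjusted p = 0.000684), and cofilin itself, CFL1, was at -0.02 ± 0.11, and at 0.12 without replicate 2 of day 0. PAK5, the remaining group II kinase, was not tested and held 0, 1 and 9 counts over the 3 libraries of day 0, day 3 and day 6.

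Of 9 other small GTPases tested, 3 were higher on day 3 against day 0, 33.3% called where 40.6% of all genes were, and 4 were higher and 2 lower on day 6 against day 0, 66.7% called where 54.6% of all genes were. RAC2, the Rac of blood cells, averaged 46.3 ± 4.54 CPM on day 6 and 22.0 ± 3.46 CPM on day 0, with a log2 fold change of 1.08 ± 0.11 (adjusted p = 8.23e-06). RHOU, an atypical Cdc42 relative, had the same order of days as PAK3, at 97.9 ± 1.14, 126 ± 7.02 and 78.1 ± 5.0 CPM on day 0, day 3 and day 6. It rose by 0.37 ± 0.07 on day 3 against day 0 (adjusted p = 0.00223), and its change was -0.69 ± 0.07 on day 6 against day 3 (adjusted p = 5.4e-05). CDC42 was not called, at -0.15 ± 0.10 on day 3 and -0.10 ± 0.10 on day 6 against day 0, and without replicate 2 of day 0 it was at -0.02 and 0.02. Of 19 GTPase activating proteins, 5 were higher on day 3 and 4 higher and 1 lower on day 6 against day 0, 26.3% called on each day where 40.6% and 54.6% of all genes were. Among them was ARHGAP22, which acts on Rac, at 1.30 ± 0.19 on day 6 (adjusted p = 0.000104). Of the 3 GDP dissociation inhibitors, ARHGDIG rose by 0.86 ± 0.11 on day 6 against day 0 (adjusted p = 5.01e-05). Of 11 other effectors, 3 were higher and 1 lower on day 6 against day 0, 36.4% called where 54.6% of all genes were, among them BAIAP2, which links Rac to WAVE proteins, at 0.47 ± 0.11 (adjusted p = 0.00361).

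Of 8 partners of CYFIP and FARP1 tested, 3 were higher and 4 lower on day 6 against day 0, 87.5% called where 54.6% of all genes were. CADM1, which encodes SynCAM 1, averaged 8.66 ± 1.14 CPM on day 6 and 3.08 ± 0.548 CPM on day 0, and rose by 1.5 ± 0.16 (adjusted p = 1.02e-05). PLXNA2, a semaphorin receptor, rose by 3.70 ± 0.72 (adjusted p = 0.000991), but from a low level, at 0.585 CPM on day 6 and 0.0440 CPM on day 0. EIF4E, the cap-binding protein that CYFIP1 can hold back, fell by 0.60 ± 0.11 (adjusted p = 0.000562), to 99.3 CPM against 150.4 CPM. FMR1, which encodes the fragile X protein, fell by 0.34 ± 0.09 on day 3 against day 0 (adjusted p = 0.00814), to 65.6 CPM against 83.2 CPM. PLXNA1 was not called, at 0.32 ± 0.18 on day 6 against day 0, and at 0.07 without replicate 2 of day 0.

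**Figure D4:**
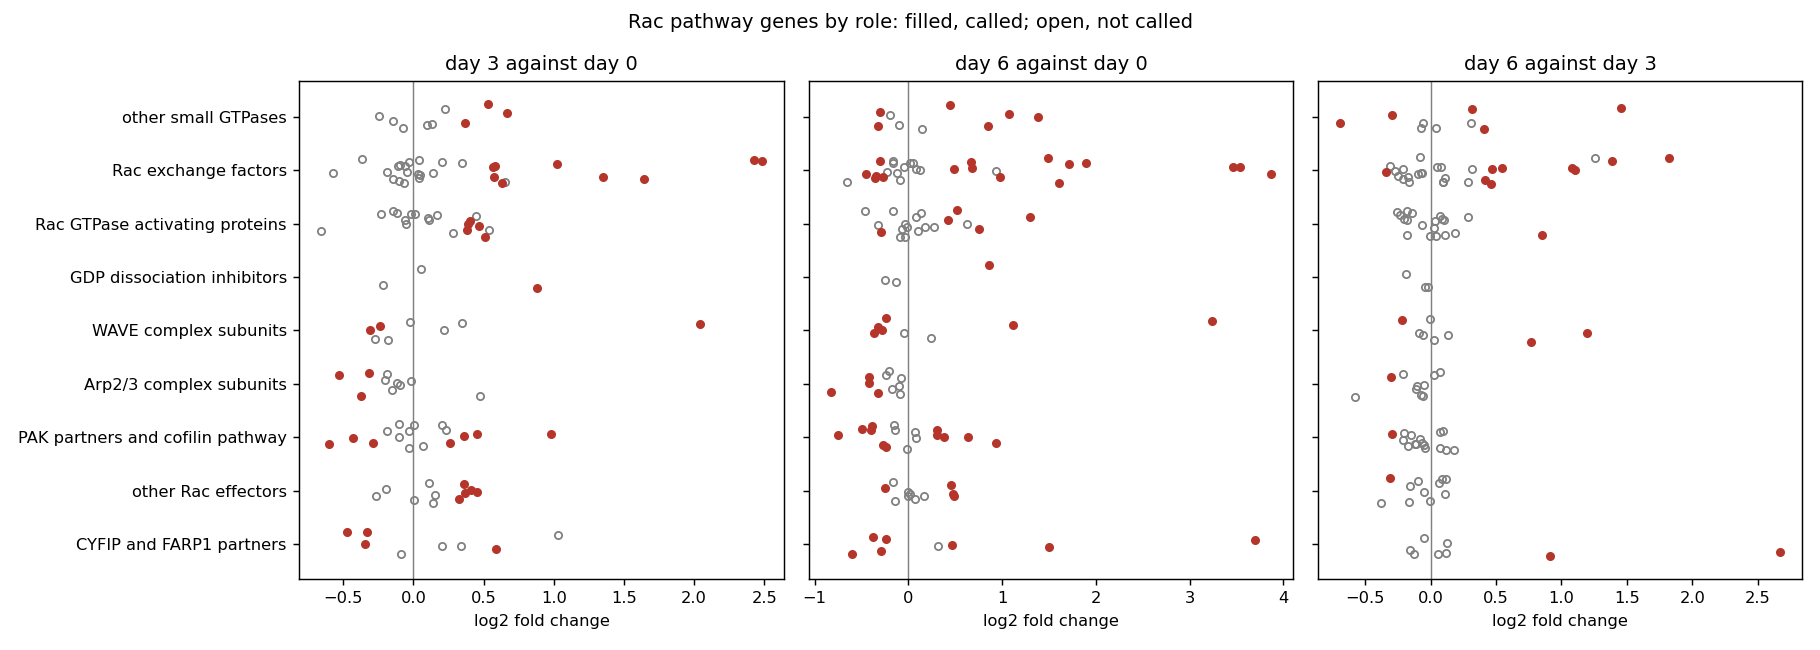
Log2 fold changes (horizontal axes, each with its own range) of the 112 tested Rac pathway genes by functional group in the 3 comparisons, with filled points for called genes and open points for the rest. The 3, 4 and 1 called Arp2/3 genes lie left of 0, where 18.1%, 25.7% and 4.76% of all genes were called lower. In the exchange factor group the 9 genes called on day 3 against day 0 lie right of 0. Of all genes, 22.5% were called higher there.

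Likeness of pattern was measured over the 9 libraries as the root mean square difference between centred log2 CPM profiles, among the 13328 tested genes that averaged 1 CPM or more. FARP1 was most like ADGRD1, at 0.16, CAMK1D, at 0.18, and ITPRIPL2, at 0.20. ADGRD1, an adhesion receptor of the G protein-coupled class, averaged 0.481, 2.42 and 16.4 CPM on day 0, day 3 and day 6. CYFIP2 was most like WSCD2, at 0.27, ITPRIPL2, at 0.30, and CAMK1D, at 0.32, so CAMK1D, a calmodulin-dependent kinase, and ITPRIPL2 were named for both genes. CAMK1D averaged 0.590, 3.15 and 21.8 CPM. PAK3 was most like HHIP, at 0.20, MS4A10, at 0.25, and HPD, at 0.26. HHIP, which binds and restrains Hedgehog ligands, averaged 38.6, 62.1 and 27.0 CPM. Within 0.5 of the pattern lay 50 genes for FARP1, 41 for CYFIP2 and 227 for PAK3. The median difference over all genes compared was 2.07 for FARP1, 2.264 for CYFIP2 and 0.672 for PAK3. The limit of 0.5 was therefore less strict for PAK3, and the 3 counts are not compared.

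**Figure D5:**
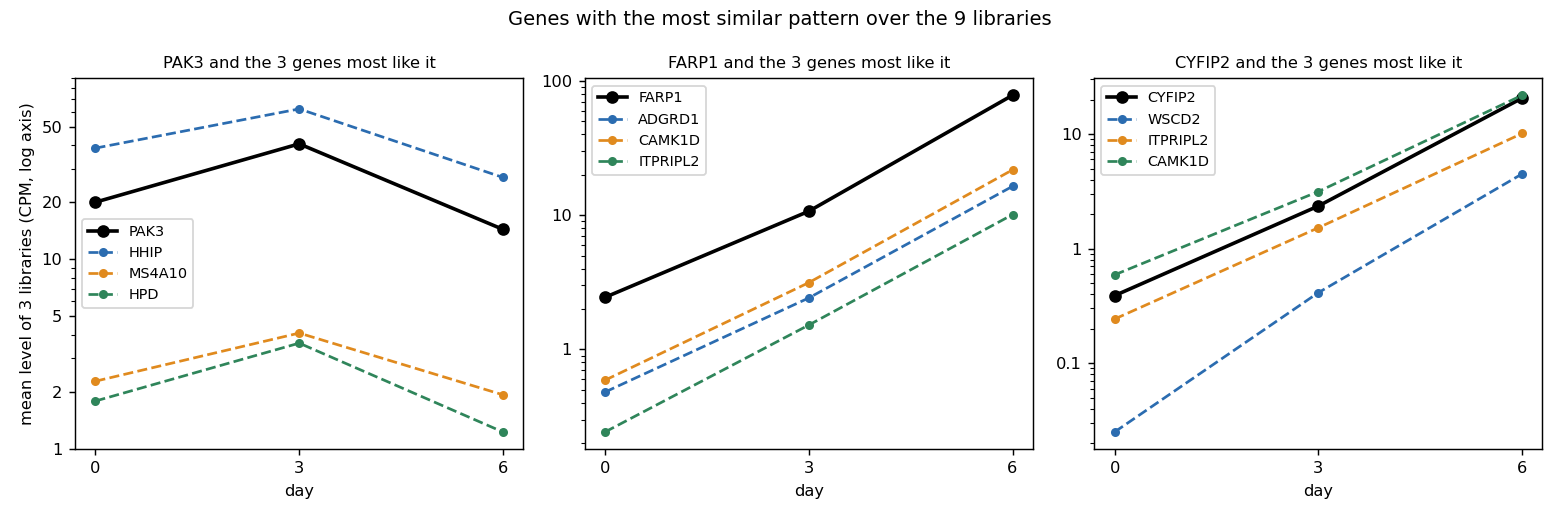
Mean levels in CPM (vertical axes, log scale) on days 0, 3 and 6 of PAK3, FARP1 and CYFIP2, each with the 3 genes most like it. HHIP peaks on day 3 at 62.1 CPM as PAK3 does, and the genes near FARP1 and CYFIP2 climb at both steps.

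Markers of other cell types were read in the same libraries, where fewer cells of a type and less RNA per cell cannot be told apart. The 6 neuron markers summed to 12.2 to 14.9 CPM on day 6 and 2.40 to 2.81 CPM on day 0, and 2 of the 3 tested were higher where 28.9% of all genes were, with TUBB3 at 12.1 and 2.21 CPM and SNAP25 at 0 counts on both days. The 4 tuft markers summed to 416 to 425 CPM on day 0, 436 to 450 CPM on day 3 and 297 to 323 CPM on day 6, and 3 of 4 were lower on day 6 against day 0 where 25.7% of all genes were. The neuron sum was 8.74 to 9.58 CPM on day 3 and so rose at both steps, as FARP1 and CYFIP2 did. The tuft sum was highest on day 3 and lowest on day 6, as PAK3 was. The part of these markers' cell types in those changes was not tested. The fibroblast, leukocyte, endothelial, squamous and epithelial markers were read too. On day 6 and day 0 the fibroblast markers summed to 73.6 to 80.6 and 55.3 to 60.1 CPM, of which PDGFRA alone averaged 65.3 and 56.9 CPM. The leukocyte markers summed to 326 to 329 and 488 to 643 CPM, of which LYZ alone averaged 323 and 544 CPM. PTPRC, a general leukocyte marker, averaged 0.444 and 0.516 CPM, and CD14 3.59 and 3.41 CPM. Endothelial markers summed to 1.58 to 2.24 and 0.658 to 0.849 CPM. Squamous markers summed to 6.56 to 7.88 CPM on day 6 and 1.11 to 1.31 CPM on day 0, and epithelial markers to 1460 to 1570 and 1380 to 1590 CPM.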

How the data were processed

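Poly-A RNA was read in 9 libraries with TruSeq chemistry, per the labels' protocols. Tools named in the submitters' processing notes are kallisto 0.44.0, DESeq2 and bcl2fastq 2.19, and the builds there are hg38, GRCh38 and GRCm38, with no role given. The deposited values are estimated counts per gene symbol, whole numbers, and how transcripts were summed is not given in the sources used here. They were rounded, and edgeR 4.0.16 (R 4.3.3) gave quasi-likelihood tests in 1 fit of all 9 libraries with a mean per day, after TMM scaling and filterByExpr (minimum count 10). P-values were adjusted by Benjamini-Hochberg over 15345 genes with a threshold of 0.05. The steps were run on simulated counts with known changes, the same modelled spread for all genes and no library that stood apart. That run does not cover a library like replicate 2 of day 0. The SE was the log2 fold change divided by the square root of F. Library totals bound the precision, since 3 counts, the limit that a count of 0 allows, equal 0.098 to 0.141 CPM per library, for counting error only.

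The listed genes, the pathway and marker lists and the tests were chosen with earlier results of these data known. Named were all 10 listed genes, in each pathway group up to 3 called genes with the lowest p and up to 2 uncalled genes with the highest mean CPM in each comparison, and the 3 genes most like PAK3, FARP1 and CYFIP2 (prior count 2). Not all of the pathway genes so named are written out, and some genes and marker sums are not reported here. Gene positions and lengths are from GENCODE release 29 on GRCh38, and promoter windows from RefSeq on GRCh38.p14, taking the window nearest the GENCODE start. Alternatives were 8 changes of scaling, filter, test, samples or pairing and each of the 9 libraries left out.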

Additional observations from a re-analysis of the deposited data

How the results depend on the processing

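The values were recomputed with each of the 9 libraries left out and under 8 other alternatives. These were a replicate block, a fit of only the 2 days compared, limma-voom, DESeq2 1.42.0, a minimum mean of 5 CPM, no count filter, scaling by library size only and scaling by median-ratio size factors. Over these, FARP1 ranged from 4.80 to 5.17, CYFIP2 from 5.66 to 5.84 and PAK3 from -0.60 to -0.37 on day 6 against day 0, a description of genes selected on these counts. The number of the 10 listed genes called ran from 5 to 8 on day 3 against day 0, 7 to 9 on day 6 against day 0 and 4 to 7 on day 6 against day 3. With library size only the median of all genes moved to 0.09, 0.13 and 0.03, and the share of calls that were higher to 69.2%, 66.6% and 78.1%, from 55.3%, 53.0% and 70.7%. With the minimum mean of 5 CPM it was 44.3%, 39.8% and 55.5%, and for day 6 against day 3 it was 57.9% with only the 2 days compared and 55.4% without replicate 2 of day 0.

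On day 6 against day 3, 2497 genes were called, 1223 with the minimum mean of 5 CPM, which tests fewer genes, 4331 with only the 2 days compared and 1606 to 4681 with a library left out. The pathway count of 23 was 13, 41 and 13 to 43 in the same alternatives. With the replicate block the genes called were 6113, 8305 and 2293, the listed genes 6, 9 and 5 and the pathway genes 42, 61 and 20. Same-numbered libraries of different days correlated at -0.153 to 0.209 in their deviations from the day mean. Differently numbered ones correlated at -0.262 to 0.244. With 3 libraries per day, these correlations cannot decide whether the replicate numbers mark a pairing.

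With the longest transcript and with the union of exons the PAK3 share was 2.56% and 2.58% on day 0, 5.98% and 6.27% on day 3 and 2.35% and 2.54% on day 6. The CYFIP2 share was 0.428% and 0.398% on day 0, 2.10% with the union on day 3, and 15.4% and 14.4% on day 6. The RAC3 share was 9.57% and 9.20% on day 0, 13.9% and 13.4% on day 3 and 15.3% and 14.7% on day 6.

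Changes of sign were limited to values not called in the fit of all libraries, and the cause was not tested. With a library left out, log2 fold changes on day 3 against day 0 ran from -0.203 to 0.185 for TRIO, -0.059 to 0.045 for RACGAP1, -0.044 to 0.105 for CHN2, -0.003 to 0.205 for CFL1 and -0.038 to 0.341 for PLXNA1. On day 6 against day 0 they ran from -0.017 to 0.160 for PAK4, -0.179 to 0.017 for CDC42, -0.112 to 0.018 for ABI1, -0.088 to 0.120 for CFL1 and -0.052 to 0.026 for BAIAP2L1. On day 6 against day 3 they ran from -0.067 to 0.024 for RAC3, -0.037 to 0.062 for WASF2, -0.026 to 0.048 for ARPC2, -0.112 to 0.017 for IQGAP1 and -0.123 to 0.021 for FXR1. Library size only gave 0.065 for RACGAP1 and 0.056 for ABI2 on day 3 against day 0, 0.019 for CDC42, 0.022 for ARHGEF7, 0.071 for ABI1, 0.106 for CFL1 and 0.112 for BAIAP2L1 on day 6 against day 0, and 0.009 for RAC3 on day 6 against day 3. CHN2 was -0.001 on day 3 against day 0 with median-ratio size factors and with DESeq2.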
